A study of Mus musculus with 45 samples.

Results

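Collagens are the triple-helical proteins of the extracellular matrix, and mouse genes for their chains carry symbols of the form Col1a1, in which the first number is the collagen type and the second the chain. The family was taken as every gene whose annotated symbol has this form, which gave 42 genes of the 18193 genes measured. Each gene was read by 1 probe set, the one with the highest mean over the 45 arrays. Col6a6 and Col28a1 were not analysed here.

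WT, SCR and KD lines of male murine embryonic stem cells (ESCs) were compared, where WT is wild type, SCR a scrambled control and KD a line labelled as silenced for Strip2. Undifferentiated cells and embryoid bodies (EBs), the aggregates in which ESCs differentiate, were profiled at days 4, 8, 12 and 16 of a hanging drop culture. Each of the 15 groups held 3 arrays of total RNA on the Affymetrix Mouse 430 2.0 platform. The labels do not say whether the 3 arrays of a group came from separate cultures. P-values therefore measure only the spread between these arrays, which may be technical. All 3 lines are of strain 129. A whole EB holds many cell types, so fewer cells of a type and less RNA per cell cannot be told apart in any value below.

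Interstitial collagens of types I, III and V assemble into the fibrils that give loose and dense connective tissue its strength, and are made mainly by mesenchymal cells and fibroblasts. Type IV collagen forms the sheet-like network of basement membranes, which the earliest epithelia and endoderm of the embryo already lay down. Type VI forms beaded filaments, types IX, XII, XIV and XVI sit on the surface of fibrils, and types XIII, XVII, XXIII and XXV span the cell membrane. Chains are hydroxylated, folded and secreted with the help of dedicated enzymes and chaperones, and are then trimmed and cross-linked outside the cell.

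Among the type IV genes, Col4a1 and Col4a2 form a head-to-head pair, and so do Col4a5 and Col4a6. Their promoters are shown because the pairs differed: at day 8 Col4a5 and Col4a6 were lower in the KD-labelled line and Col4a1 and Col4a2 were not called. Windows were the 300 bases around the RefSeq start on GRCm38.p6, written 5′ to 3′ on the gene's strand, with capitals for matches on either strand to the CCAAT box, to the GC box GGGCGG and to the TATA box TATAAA. Col4a1 lies at chr8:11312777-11313076 on the minus strand, and Col4a2 at chr8:11312555-11312854 on the plus strand. Their start sites lay 21 bases apart and the windows shared 78 bases. The 2 genes overlap at their 5′ ends, so each of these windows included sequence of the other gene. Col4a6 lies at chrX:141474027-141474326 on the minus strand, and Col4a5 at chrX:141475169-141475468 on the plus strand, with 1343 bases between their start sites.
Col4a1: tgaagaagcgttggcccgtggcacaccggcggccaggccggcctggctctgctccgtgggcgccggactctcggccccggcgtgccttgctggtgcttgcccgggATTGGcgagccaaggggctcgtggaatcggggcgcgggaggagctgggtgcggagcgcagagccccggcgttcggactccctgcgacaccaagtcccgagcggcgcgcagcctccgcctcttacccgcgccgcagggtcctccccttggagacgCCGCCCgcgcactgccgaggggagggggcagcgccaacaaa
Col4a2: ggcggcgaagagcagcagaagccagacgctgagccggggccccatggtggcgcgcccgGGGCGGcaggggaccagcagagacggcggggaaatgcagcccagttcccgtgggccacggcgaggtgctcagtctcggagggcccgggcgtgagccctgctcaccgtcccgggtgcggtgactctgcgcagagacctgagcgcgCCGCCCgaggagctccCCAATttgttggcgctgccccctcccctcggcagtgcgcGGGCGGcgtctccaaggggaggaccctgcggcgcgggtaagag
Col4a6: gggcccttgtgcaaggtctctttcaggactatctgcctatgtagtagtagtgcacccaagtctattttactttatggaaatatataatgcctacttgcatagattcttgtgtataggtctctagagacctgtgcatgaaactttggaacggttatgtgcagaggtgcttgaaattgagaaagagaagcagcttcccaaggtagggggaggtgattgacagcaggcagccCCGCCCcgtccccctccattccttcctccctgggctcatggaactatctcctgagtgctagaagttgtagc
Col4a5: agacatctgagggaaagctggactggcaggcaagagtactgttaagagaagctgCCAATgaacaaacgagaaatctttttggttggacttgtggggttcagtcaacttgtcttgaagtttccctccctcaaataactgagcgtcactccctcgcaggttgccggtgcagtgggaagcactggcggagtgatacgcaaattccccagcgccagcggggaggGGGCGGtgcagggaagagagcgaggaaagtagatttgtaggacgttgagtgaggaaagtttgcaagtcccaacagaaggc
The Col4a1 and Col4a2 windows held 37 and 33 CpG dinucleotides at 74.0% and 73.7% G+C. The Col4a6 and Col4a5 windows held 3 and 11 CpG at 48.3% and 52.7% G+C. Col4a1, Col4a2 and Col4a5 each had 1 CCAAT match, Col4a6 had none, and all 4 had at least 1 GGGCGG match. No base lay in 2 motifs. Windows were found for 33 of the 42 genes, 36 in all. Over these, GGGCGG occurred in 61.1% against 35.7% of all 32851 promoter windows of the same length, CCAAT in 36.1% against 37.4%, and TATAAA in 13.9% against 13.6%. These matches are descriptions of letters and not of factor binding.

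Strip2 was read first, as a check of the labels. Its log2 level was 2.66, 2.77 and 2.72 on the KD arrays of ESCs, 2.82, 2.86 and 2.86 in SCR and 2.5, 2.59 and 3 in WT. At day 16 it was 3.01, 3.41 and 3.43 in KD, 4.54, 4.4 and 5.6 in SCR, and 3, 3.12 and 2.52 in WT. The KD arrays lay below SCR but not below WT: KD minus SCR was -0.92 at day 12 and -1.56 at day 16, while KD minus WT was 0.63 at day 12, called higher (limma, Benjamini-Hochberg adjusted p = 0.0061). SCR exceeded WT by 1.55 and 1.97 on the same days. The line is therefore called KD-labelled below, and counts are given against SCR and against WT. A difference given without naming its control is from SCR.

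All values are the deposited log2 levels, and a difference of 1 is a 2-fold change. A gene was called when its adjusted p over the 18193 genes was under 0.05. Array medians ran from 5.02 to 5.18 and single values from 1.82 to 14.26. Of the 42 collagens, 9 read below 5.02, the lowest array median, on every array; no detection calls were used. Pluripotency markers checked the ESC label: the mean of 8 genes was 11.46 in WT, 11.18 in SCR and 11.37 in KD-labelled ESCs, with Utf1 at 9.49 and Esrrb at 9.3 as the lowest. A label field tags array 1 of the 8-day EBs as ESC in every line, and these arrays were kept at day 8, as titled.

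In WT and SCR cells part of the family rose in waves. By day 4, 12 of 42 collagens in WT and 9 in SCR had risen at least 2-fold above ESCs, beside 7.25% and 7.23% of all genes. By day 8 a further 8 in WT and 10 in SCR had done so. At day 8, 13.1% and 12.5% of all genes stood at least 2-fold above ESCs in these lines. After day 8 only Col16a1, Col17a1 and Col27a1 joined. In the KD-labelled line no collagen had risen 2-fold by day 4, beside 2.75% of all genes. At any day 6 did: Col4a1, Col4a2, Col4a5 and Col5a1 by day 8 and Col3a1 and Col9a1 by day 12. Of all genes, 5.22%, 6.92% and 6.04% stood at least 2-fold above KD-labelled ESCs at days 8, 12 and 16. The risen collagens took a larger share of the 42 on each of these days. The Col9a1 call, a rise of 1.07, was lost without KD-labelled ESC array 2 (1.05) or 3 (0.94) or day 12 array 1 (1.13) or 3 (0.93), under centring (0.83, adjusted p = 0.07) and with the mean of its probe sets (0.44, adjusted p = 0.19). The Col5a1 call was lost with the mean of its probe sets at day 8 (0.43, adjusted p = 0.078), day 12 (0.43, 0.069) and day 16 (0.41, 0.093). For 36 of 42 collagens the KD-labelled line never showed a called 2-fold rise. The same held for 20 of 42 in WT and 21 of 42 in SCR.

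Counted at any size, 18 members were called higher and 3 lower at day 4 than in ESCs in WT, beside 21.4% and 20.3% of all genes. The WT counts were 24 and 6 at day 8 (25.8% and 30.8%), 23 and 6 at day 12 (26.8% and 33.2%), and 25 and 6 at day 16 (28.1% and 38.1%). In SCR they were 15 and 4 at day 4 (20.6% and 21.9%), 22 and 4 at day 8 (26% and 32.2%), 24 and 5 at day 12 (27.5% and 39.1%) and 26 and 7 at day 16 (29.1% and 42.7%). In both control lines the collagens called higher took a larger share of the 42 than genes called higher took of all genes, at each of the 4 days. The KD-labelled line had 4 higher and 3 lower at day 4 (12.4% and 11.4%), 5 and 4 at day 8 (17.8% and 19.1%), 8 and 5 at day 12 (20.2% and 23.2%), and 9 and 3 at day 16 (19.1% and 19.1%). The KD-labelled counts were close to or below the shares of all genes. The day 4 counts of the KD-labelled line fell from 7 to 4 without ESC array 3 and to 3 without day 4 array 3.

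Against SCR, the KD-labelled line had 22 of 42 collagens lower and 4 higher at day 8, where 24.7% of all genes were lower and 28% higher. The counts were 2 lower and 6 higher in ESCs (11.3% and 12.3%), 15 and 5 at day 4 (19.9% and 22.6%), 21 and 7 at day 12 (24.6% and 31%), and 22 and 10 at day 16 (26.8% and 39.8%). Falls of at least 2-fold numbered 0 in ESCs and 10, 15, 17 and 18 at days 4 to 16, beside 2.93%, 6.9%, 10.6%, 11.3% and 13% of all genes. Rises of at least 2-fold numbered 1, 1, 2, 3 and 3, beside 2.13%, 7.6%, 9.54%, 10.2% and 10.4%. The median difference over the 42 genes was 0.1 in ESCs and -0.04, -0.38, -0.32 and -0.45 on the later days, while over all genes it was 0.03, 0.03, 0.07, 0.1 and 0.17. Under centring of each array the all-gene median was 0.36 at day 16, and the split of members at that day became 21 lower and 14 higher; under cyclic loess it was 24 and 4.

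Against WT the picture was similar in size: 2 lower and 5 higher in ESCs (9.78% and 8.66% of all genes), 18 and 3 at day 4 (19.9% and 19.2%), 21 and 4 at day 8 (23.9% and 26%), 22 and 6 at day 12 (23.6% and 27.1%) and 21 and 6 at day 16 (26.1% and 34.6%). Falls of at least 2-fold numbered 0, 9, 15, 18 and 18 from ESCs to day 16 (1.8%, 6.22%, 10.3%, 10.2% and 11.8% of all genes). Rises of that size numbered 3, 1, 2, 3 and 2 (0.885%, 6.55%, 8.59%, 9.23% and 8.61%). The 2 comparisons share the KD-labelled arrays and are not independent. Of the 42, 16 were lower than both SCR and WT at days 8, 12 and 16, and 15 of these by at least 2-fold each time: Col1a1, Col1a2, Col3a1, Col5a1, Col5a2, Col11a1, Col4a5, Col4a6, Col6a1, Col6a2, Col6a3, Col8a2, Col9a1, Col14a1 and Col23a1. Col27a1 was the sixteenth. How many of all genes met this joint rule was not counted, so these joint counts have no background beside them. The KD-labelled arrays all lay below the 6 control arrays for 21 members at day 8, 21 at day 12 and 20 at day 16, beside 22.6%, 21.8% and 24% of all genes. They all lay above for 4, 7 and 5, beside 25.7%, 26.6% and 34%. Of 222 calls against SCR or WT, 141 were of at least 2-fold, and none of those was lost or moved by more than 1.5 times when any 1 array was left out; 42 of the smaller calls were.

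**Figure D1:**
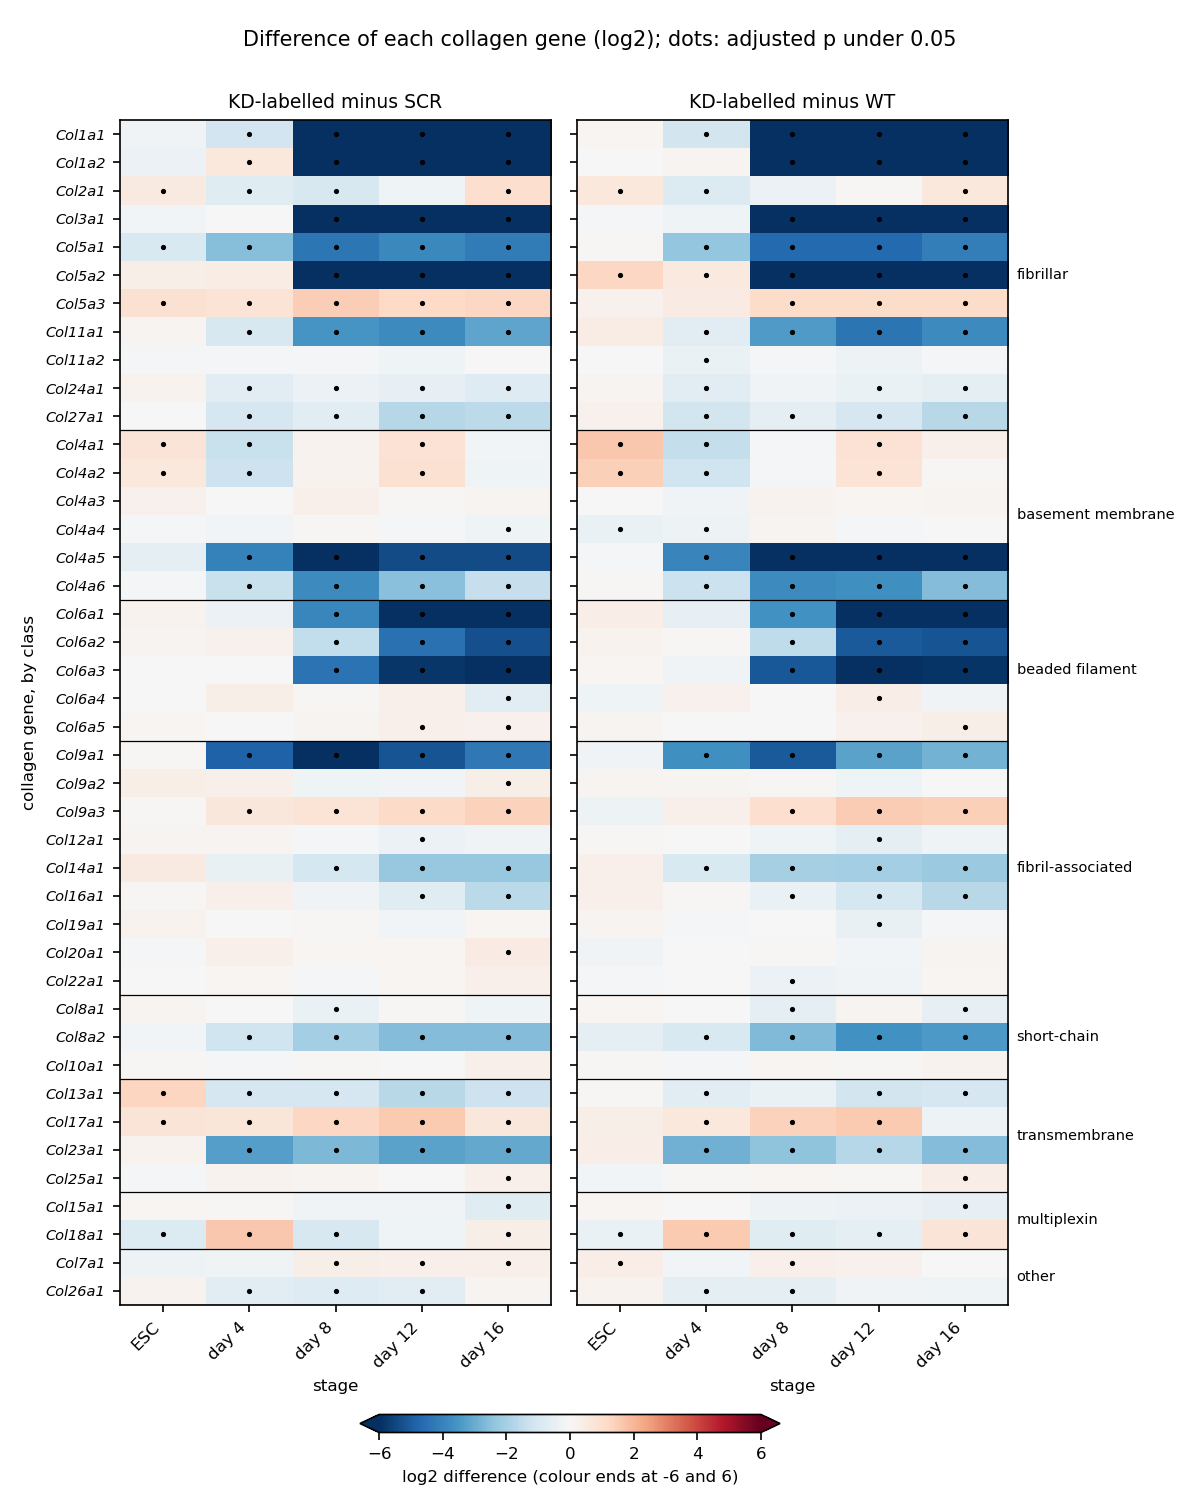
Map of the log2 difference of the KD-labelled line from SCR and from WT for the 42 collagens (rows, by class) at the 5 stages (columns), with blue for lower, red for higher and a dot where the adjusted p is under 0.05. Col3a1, at -10.13 from SCR at day 8, is past the colour scale, which ends at -6 and 6, while Col4a1 and Col4a2 turn from -1.34 and -1.25 at day 4 to 0.86 and 0.9 at day 12.

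Most fibril-forming collagens were lower in the KD-labelled EBs of days 8 to 16. Of the 11 measured, 9 were lower and 1 higher than SCR at day 8 (median difference -3.54), 8 and 1 at day 12 (-3.84) and 8 and 2 at day 16 (-3.18). Beside these stood 24.7%, 24.6% and 26.8% of all genes lower and 28%, 31% and 39.8% higher. Col1a1 and Col1a2 encode the 2 chains of type I collagen, the main fibril of connective tissue. Col1a1 read 10.89, 10.56 and 9.64 on the SCR arrays at day 8 and 10.8, 11.19 and 11.23 in WT. The KD-labelled arrays read 4.35, 4.49 and 4.28, not above the 9 ESC arrays (4.31 to 5.28). The KD-labelled arrays were far below all controls and did not overlap them, a difference from SCR of -5.99 (SE 0.24, 63.6-fold, adjusted p = 9.1e-22). Without a rise at any later day, the gap was -6.17 at day 12 and -6.26 at day 16.

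Col1a2 read 12.85, 12.7 and 12.03 in SCR, 12.59, 12.97 and 12.86 in WT and 5.54, 4.83 and 6.07 in KD-labelled EBs at day 8. The control arrays were all above 12 and the KD-labelled arrays at most 6.07, so the groups did not overlap (-7.05, SE 0.23, adjusted p = 2.4e-24). KD-labelled day 4 EBs had read slightly higher than SCR, 5.7, 5.73 and 5.59 against 4.94, 4.95 and 5.17 (0.65, adjusted p = 0.018). That small call was lost without SCR array 1 (0.61, adjusted p = 0.056), SCR array 2 (0.62, 0.054) or KD-labelled array 2 (0.62, 0.052), and against WT the difference was 0.15 (adjusted p = 0.68).

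Col3a1 encodes type III collagen, which forms mixed fibrils with type I in soft tissue. At day 8 it read 14.24, 14.06 and 13.95 in SCR and 14.18, 14.21 and 14.22 in WT, near the highest value on any array (14.26), the upper end of the measured range. The KD-labelled arrays read 3.86, 3.73 and 4.28, no higher than ESCs, and the difference was -10.13 (SE 0.28, adjusted p = 6.2e-26). With controls at the top of the range and the KD-labelled arrays below the array medians, the size is limited by the range of the arrays and is given no rank. At day 12 the KD-labelled arrays read 6.1, 5.7 and 6.28, and at day 16 they read 6.25, 5.88 and 7.92, with array 3 above the other arrays. Col3a1 thus rose late in the KD-labelled line, by 2.16 (SE 0.28, adjusted p = 1.1e-07) over ESCs at day 12 and 2.81 at day 16, yet its difference from SCR was still -7.28. The gap to SCR shrank by 2.85 between days 8 and 16 (SE 0.4, adjusted p = 1.2e-06) and that to WT by 2.89.

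Type V collagen nucleates and thins fibrils, and its 3 chains behaved differently. Col5a2 read 11.31, 10.7 and 10.13 in SCR and 11.66, 11.59 and 11.83 in WT at day 8, against 4.7, 4.77 and 4.76 in KD-labelled EBs (-5.97, SE 0.21, adjusted p = 1.8e-23). The KD-labelled level did not rise at any day and fell from 5.57, 5.53 and 5.45 in ESCs to 4.57, 4.53 and 4.62 at day 16. Col5a1 was on already in controls at day 4, at 8.1, 7.7 and 7.75 in SCR and 7.77, 7.7 and 7.45 in WT. The KD-labelled arrays read 5.33, 5.36 and 5.24, below every control array (-2.54, SE 0.23, adjusted p = 1.4e-11). Unlike Col1a1 it rose in KD-labelled EBs, to 6.38, 6.35 and 6.84 at day 8 (1.06 over ESCs, adjusted p = 0.00036), while SCR reached 11.25, 10.77 and 10.53. With the mean of its 3 probe sets the rise was 0.43 and was not called (adjusted p = 0.078).

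Col11a1 joins type V in the core of fibrils and is prominent in cartilage. It read 8.42, 7.79 and 7.75 in SCR, 7.8, 7.93 and 7.81 in WT and 4.38, 4.3 and 4.66 in KD-labelled EBs at day 8, with no overlap (-3.54, SE 0.17, adjusted p = 4.2e-19). Col27a1 was lower than SCR (log2 difference -1.02, -0.7, -1.73 and -1.58) at days 4 to 16. Col24a1 was called lower, with differences of -0.77 to -0.34, at levels of 2.49 to 3.55 at days 4 to 16, and its call at day 8 was lost without SCR array 1 (-0.32) or array 2 (-0.31) or KD-labelled array 2 (-0.31). Against WT the day 8 difference of Col24a1 was -0.19 and was not called (adjusted p = 0.24). Col11a2 was called at no stage against SCR, and its difference from WT at day 4, -0.42, lost its call without WT array 1 (-0.40) or KD-labelled array 3 (-0.37).

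**Figure D2:**
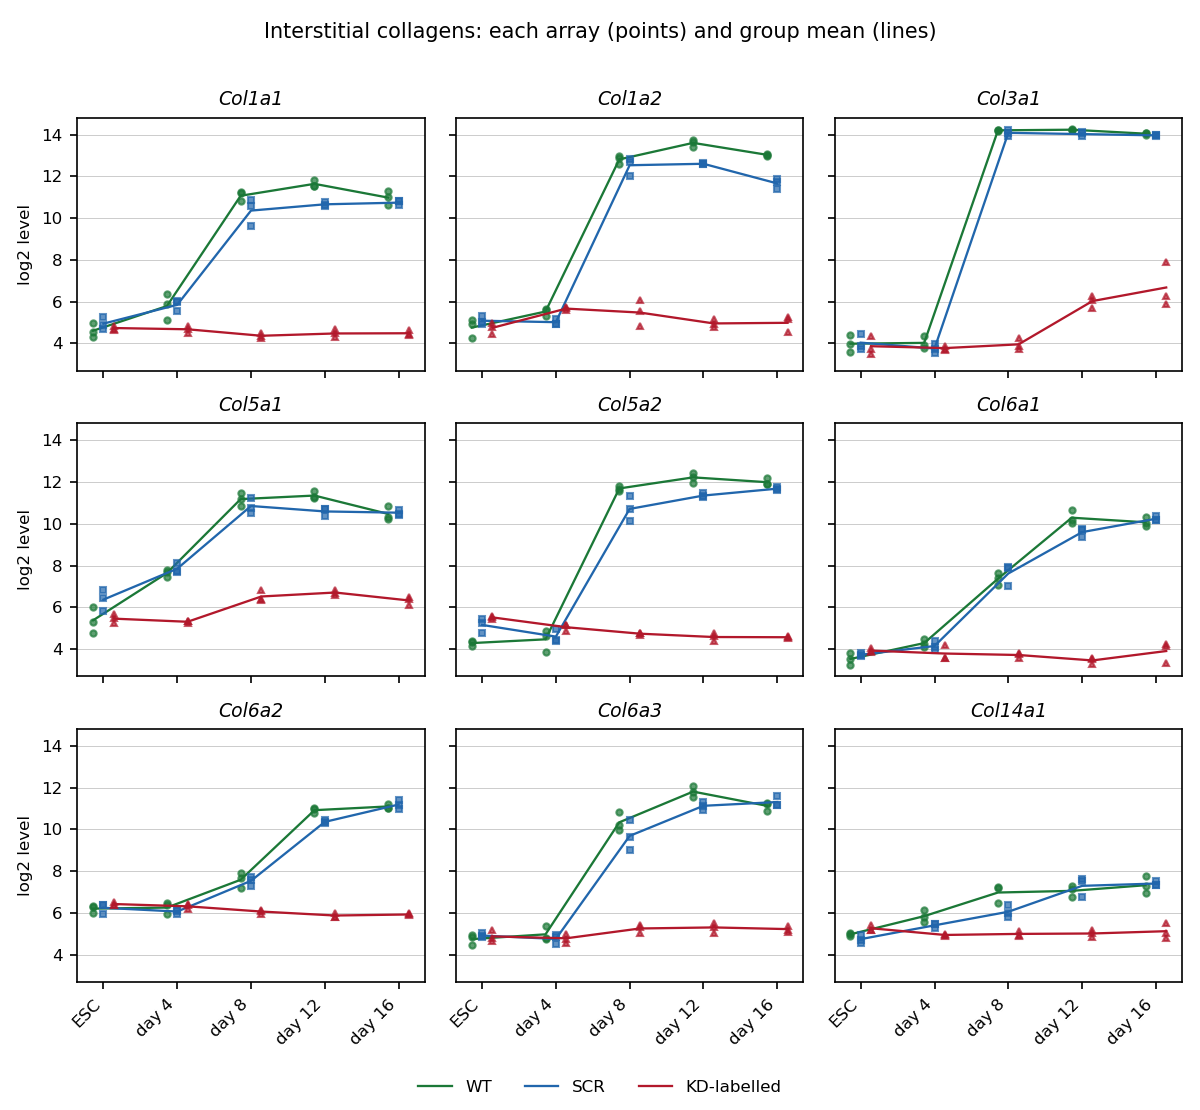
Log2 level of 9 interstitial collagens (panels) in ESCs and at days 4 to 16, with each array as a point (circles WT, squares SCR, triangles KD-labelled) and the group means as lines. In controls Col1a1, Col1a2, Col3a1 and Col5a2 jump between days 4 and 8, and the KD-labelled line shows no such jump for these genes. Its Col3a1 arrays reach 6.25, 5.88 and 7.92 at day 16, and its Col5a1 mean reaches 6.71 at day 12.

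Col2a1, the cartilage fibril chain, followed another course. SCR read 5.98, 6.28 and 6.44 at day 4, 6.9, 7.37 and 7.05 at day 8 and 5.02, 5.68 and 5.06 at day 16. KD-labelled EBs read 5.24, 5.81 and 5.39, then 5.92, 6.3 and 6.2, and then 6.1, 6.23 and 6.48. They were lower than SCR early (-0.75 at day 4 and -0.97 at day 8) and higher at day 16 (1.02, SE 0.17, adjusted p = 3.7e-06), as SCR fell between those days. Against WT the day 8 difference was -0.37 and was not called (adjusted p = 0.071), and that at day 16 was 0.61 (adjusted p = 0.0028). The gap changed between days 8 and 16 by 1.98 against SCR and 0.98 against WT.

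The basement membrane genes did not all move one way. Col4a1 and Col4a2 encode the 2 chains of the common type IV network. Col4a1 read 7.93, 7.8 and 8.05 in KD-labelled ESCs, above SCR at 7.49, 6.78 and 7.15 and WT at 6.71, 6.14 and 6.03, with no overlap (0.79 over SCR, adjusted p = 0.00071, and 1.63 over WT). By day 4 the controls had overtaken it, at 9.7, 9.54 and 9.78 in SCR and 9.93, 9.77 and 9.61 in WT against 8.06, 8.35 and 8.59 (-1.34, SE 0.18, adjusted p = 4.8e-08). By day 8 the KD-labelled arrays read 10.85, 10.88 and 11.18, among SCR (10.69, 10.97 and 10.69) and WT (10.79, 11.34 and 11.05), and the difference of 0.19 (SE 0.18) was not called (adjusted p = 0.4).

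At day 12 KD-labelled Col4a1 read 12.08, 11.66 and 12.05, above all 6 control arrays (0.86, SE 0.18, adjusted p = 6.6e-05). Neither day 16 difference was called, -0.15 from SCR (adjusted p = 0.45) or 0.31 from WT (adjusted p = 0.13), and the one from SCR turned to 0.04 when arrays were centred. The one from WT was called under centring (0.51, adjusted p = 0.0087) and with the mean of the probe sets (0.42, adjusted p = 0.037). Col4a2 moved with it: KD-labelled minus SCR was -1.25 at day 4, and 0.9 at day 12 (adjusted p = 0.00057). At day 8 (0.22, adjusted p = 0.43) and day 16 (-0.27, adjusted p = 0.27) it was not called. Its day 12 arrays read 10.64, 10.03 and 10.43 in the KD-labelled line and 9.2, 9.59 and 9.6 in SCR, without overlap. Within the KD-labelled line Col4a1 rose by 3.04 and Col4a2 by 3.27 over ESCs by day 8 (adjusted p = 9.9e-16 and 4.2e-14). The higher ESC level of Col4a2 against SCR (0.62) was lost without SCR array 3 (0.59), SCR array 2 (0.42), KD-labelled array 3 (0.52) or KD-labelled array 1 (0.60).

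Col4a5 and Col4a6, the X-linked pair that supplies other type IV networks, did not recover. Col4a5 read 7.44, 7.67 and 7.93 in SCR and 7.94, 7.67 and 7.13 in WT at day 4, against 3.81, 3.03 and 4 in KD-labelled EBs. At day 8 SCR read 10.71, 10.23 and 10.47, WT 10.83, 10.48 and 10.75 and the KD-labelled arrays 4.1, 4.39 and 4.78. The KD-labelled arrays stayed below every control array, with differences from SCR of -4.07 at day 4, -6.05 at day 8 (SE 0.26, adjusted p = 7.9e-21), -5.36 at day 12 and -5.37 at day 16. They did rise above their own ESCs, by 1.76 at day 8 (adjusted p = 9.7e-07) and 1.97 at day 12.

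Col4a6 read 8.44, 7.85 and 7.58 in SCR and 7.85, 7.88 and 8.16 in WT at day 8, and 3.95, 4.07 and 4.35 in KD-labelled EBs (-3.83, SE 0.18, adjusted p = 1.7e-19). SCR then declined to 5.88, 5.79 and 5.61 at day 16, so the gap narrowed to -1.36 without a called rise in the KD-labelled line. In WT, which held 7.28, 6.96 and 6.81, the gap at day 16 was -2.61. Col4a3 was called at no stage against either control. Col4a4 stood between 3.02 and 3.84 on all arrays, and its call against SCR at day 16 (-0.28) was lost without SCR array 3 (-0.22) or 1 (-0.26) or KD-labelled array 3 (-0.27) or 2 (-0.23).

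**Figure D3:**
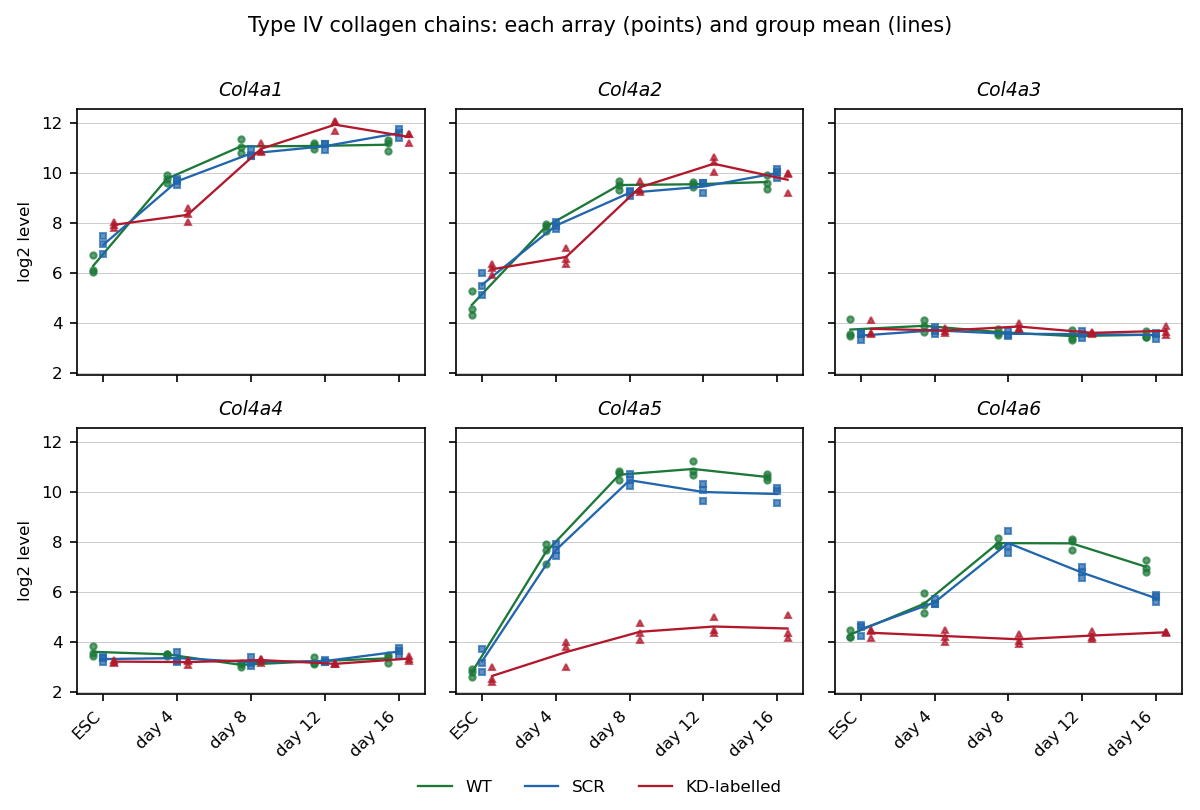
Log2 level of the 6 type IV collagen genes (panels) over the 5 stages, each array a point and group means as lines, for WT (circles), SCR (squares) and the KD-labelled line (triangles). The KD-labelled Col4a1 and Col4a2 curves lag at day 4 and meet the controls by day 8, while Col4a5 stays between 3.03 and 5.08 from day 4 on and Col4a6 between 3.95 and 4.51.

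Type VI collagen, which forms beaded filaments between cells and fibrils, came on later in controls. Col6a1 read 7.95, 7.88 and 7.03 in SCR at day 8 and 10.19, 10.37 and 10.16 at day 16, while KD-labelled EBs read 3.56, 3.81 and 3.79 and then 3.36, 4.14 and 4.23. Col6a2 read 7.71, 7.59 and 7.31 in SCR at day 8 and 10.99, 11.43 and 11.16 at day 16, against 5.97, 6.13 and 6.11 and then 5.89, 5.98 and 5.93. Col6a3 read 10.45, 9.63 and 9 and then 11.17, 11.58 and 11.19 in SCR, against 5.05, 5.41 and 5.31 and then 5.11, 5.2 and 5.39. No KD-labelled array reached a control array for any of the 3 genes. The differences from SCR were -3.9, -1.47 and -4.44 at day 8 and -6.33, -5.26 and -6.08 at day 16 (SE 0.21, 0.14 and 0.24). The gap to SCR widened between those days by -2.43, -3.79 and -1.64 (adjusted p = 7.8e-08, 1.3e-16 and 0.00037). Against WT it widened by -2.51 for Col6a1 and -3.64 for Col6a2, and the change of -0.81 for Col6a3 was not called (adjusted p = 0.089).

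Both other measured type VI chains differed from SCR by less than 1 on the log2 scale. Col6a4 was lower than SCR at day 16 (-0.62, adjusted p = 0.0019), a value that dropped to -0.39 without SCR array 2, and its second probe set was higher (0.47, adjusted p = 3e-04), so no direction is given for it. Col6a5 read 2.29 to 2.95 on all arrays. Its calls of 0.29 at day 12 and 0.27 at day 16 against SCR were lost without SCR array 1 (0.29 and 0.28), without KD-labelled array 3 (0.20 and 0.21), and also without SCR array 2 at day 12 (0.26), SCR array 3 at day 16 (0.23) or KD-labelled array 1 at day 16 (0.22).

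Among the fibril-associated collagens, 2 of 9 were lower and 1 higher at day 8, 4 and 1 at day 12, and 3 and 3 at day 16 against SCR. Of all genes 24.7%, 24.6% and 26.8% were lower and 28%, 31% and 39.8% higher on these days, so the counts at days 8 and 16 were close to the background or below it. Col9a1, a cartilage and eye collagen that decorates type II fibrils, read 8.06, 8.44 and 8.76 in SCR and 7.74, 7.24 and 6.85 in WT at day 4. KD-labelled EBs read 3.52, 3.96 and 3.29, not above their ESCs at 3.92, 3.61 and 3.39 beyond the spread of the arrays. At day 8 SCR read 9.66, 9.51 and 10.44, WT 8.7, 8.03 and 8.88 and the KD-labelled line 3.52, 3.44 and 3.46, a gap of -6.4 to SCR (SE 0.41, adjusted p = 5.6e-16) and -5.06 to WT. The KD-labelled arrays at day 16, 3.91, 4.53 and 5.51, were spread more widely.

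Col14a1 binds fibrils in dense tissue, and read 6.37, 6.01 and 5.81 in SCR and 6.48, 7.21 and 7.25 in WT at day 8 against 4.94, 5.14 and 4.91. At day 16 SCR read 7.35, 7.55 and 7.32 and the KD-labelled line 5.04, 5.54 and 4.8. The arrays did not overlap at either day (-1.07 and -2.28, SE 0.21). Col16a1 rose late in controls, to 7.7, 7.9 and 7.85 in SCR and 8.05, 7.73 and 7.8 in WT at day 16, while the KD-labelled arrays read 6.24, 6.47 and 5.89 (-1.62, SE 0.17, adjusted p = 3.7e-10). At day 8 the Col16a1 difference from SCR, -0.19, was not called.

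Col12a1 depends on the probe set. The one used here read 5.43, 5.78 and 5.69 in SCR and 5.46, 5.65 and 5.37 in KD-labelled EBs at day 8 (-0.14, adjusted p = 0.41) and differed by -0.21 at day 16 (adjusted p = 0.17). Another probe set of the same gene gave -1.95 and -4.2. With the first, the day 12 call of -0.37 was lost without SCR array 3 (-0.30) or array 2 (-0.32). Col20a1 was called higher only at day 16 (0.47), lost without SCR array 3 (0.33) or KD-labelled array 2 (0.34). Col9a2 was called higher only at day 16 (0.36), lost without SCR array 3 (0.34) or KD-labelled array 3 (0.30). Col19a1 and Col22a1 were called at no stage against SCR, although another probe set of Col22a1 gave -0.97 at day 8.

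Of the short-chain and membrane collagens, Col8a2, a chain of the hexagonal network of Descemet's membrane and vessel walls, was lower than SCR (log2 difference -2.06) at day 8 (6.75, 6.25 and 5.4 in SCR, 4.16, 3.96 and 4.09 in KD-labelled EBs) and -2.6 at day 16. Col8a1 was lower (log2 difference -0.41) at day 8, a call lost without SCR array 2 (-0.39) or KD-labelled array 3 (-0.34) or 1 (-0.40), and Col10a1 was called at no stage. Col23a1, a transmembrane collagen, read 7.5, 7.46 and 7.54 in SCR and 6.61, 7.36 and 7.17 in WT at day 4, against 4.84, 3.81 and 3.88 in KD-labelled EBs (-3.32, SE 0.22, adjusted p = 5.4e-15). Its 9 WT arrays of days 8 to 16 read 6.13 to 7.18, above the KD-labelled range of 4.12 to 5.01. Col13a1, also transmembrane, was lower (log2 difference -0.99, -0.99, -1.68 and -1.25) at days 4 to 16 and higher by 1.27 in ESCs, where SCR read 4.76, 4.71 and 5.32 but WT 6.15, 5.81 and 6.42. The ESC difference from WT was 0.08 (adjusted p = 0.87), so the ESC difference was called against SCR and not against WT. Against WT Col13a1 differed by -0.38 at day 8 (adjusted p = 0.14, not called), -1.12 at day 12 and -1.03 at day 16. Its day 4 difference from WT, -0.65, lost its call without WT array 3 (-0.48) or KD-labelled array 3 (-0.50).

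A few collagens were higher in the KD-labelled line. Col5a3, Col9a3 and Col17a1 were higher than SCR on each of days 4, 8, 12 and 16, and higher than WT at days 8 and 12. Col5a3, the third chain of type V, read 5.16, 4.62 and 5.1 at day 8 in KD-labelled EBs, 3.33, 3.45 and 3.66 in SCR and 3.22, 4.27 and 4.07 in WT, with no overlap (1.48, SE 0.25, 2.79-fold, adjusted p = 3.6e-06). From ESCs to day 8 it fell by 1.32 in WT and by 1.03 in SCR, and the KD-labelled change of -0.46 was not called (adjusted p = 0.15). A second, dimmer probe set of Col5a3 differed by -0.05 at day 8. Its ESC call (0.91) was lost without KD-labelled array 3 (0.64).

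Col17a1, the hemidesmosomal collagen that anchors epithelia to the basement membrane, read 4.41, 4.56 and 4.34 at day 8 in KD-labelled EBs, 3.2, 3.32 and 3.13 in SCR and 3.19, 3.08 and 2.89 in WT (1.22, SE 0.21, 2.33-fold, adjusted p = 4.7e-06). At day 12 the gap was 1.55. At day 16 WT itself rose to 4.34, 5.66 and 5.19, and the KD-labelled arrays at 4.68, 4.81 and 4.78 fell among them, so that KD-labelled minus WT was -0.31 (adjusted p = 0.2). The gap to WT changed by -1.69 between days 8 and 16 (adjusted p = 4.5e-05). The ESC call against SCR (0.77) was lost without SCR array 2 (0.54). The day 4 call against WT (0.63) was lost without WT array 3 (0.51) or KD-labelled array 2 (0.56).

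Col9a3, a chain of type IX collagen, went the other way from Col9a1. At day 12 it read 6.14, 6.29 and 6.02 in KD-labelled EBs, 4.91, 4.89 and 5.21 in SCR and 4.5, 4.53 and 4.86 in WT, without overlap (1.15, SE 0.16, adjusted p = 1.4e-07). At day 16 the difference was 1.36 against SCR and 1.42 against WT. From ESCs to day 12 it fell by 1.45 in WT and by 0.69 in SCR. Both of its other probe sets were higher at day 8 as well, by 1.63 and 0.45.

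Col18a1, a basement membrane proteoglycan that yields endostatin, showed a dip at day 4 that the KD-labelled line lacked. SCR read 9.92, 9.81 and 10.01 in ESCs and 7.78, 7.82 and 7.75 at day 4, and WT fell from 9.63, 9.47 and 9.38 to 8.2, 7.79 and 7.56. KD-labelled arrays read 9.06, 9.06 and 9.11 and then 9.43, 9.38 and 9.47, above all 6 controls at day 4 (1.64, SE 0.14, adjusted p = 1.7e-12). By day 8 controls had returned to 10.14, 10.42 and 10.08 in SCR and the sign turned (-0.98). The second probe set gave 2.54 at day 4 and -0.1 at day 8, so the day 8 fall held for 1 of its 2 sets. The day 16 rise of 0.36 over SCR was lost without SCR array 1 (0.21) or KD-labelled array 2 (0.29). The rise over WT on that day, 0.78 (adjusted p = 7.8e-06), stayed called whichever array was left out.

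Col7a1, the anchoring fibril of skin, was higher than SCR by 0.33, 0.32 and 0.31 at days 8, 12 and 16. These calls were lost without SCR array 3 (0.29) or 1 (0.29) or KD-labelled array 3 (0.27) or 1 (0.34) at day 8, without SCR array 3 (0.31) or 2 (0.31) or KD-labelled array 3 (0.28) or 1 (0.33) at day 12, and without SCR array 1 (0.25) or KD-labelled array 2 (0.22) at day 16. Against WT Col7a1 was not called at day 12 (0.24, adjusted p = 0.12) or day 16 (-0.01, adjusted p = 0.95). Col25a1 was higher by 0.31 at day 16, lost without SCR array 3 (0.26) or 1 (0.28) or KD-labelled array 3 (0.34) or 2 (0.23), whereas another of its probe sets gave -3.38. Col15a1 was lower (log2 difference -0.74) at day 16 alone. Col26a1 was lower (log2 difference -0.65, -0.77 and -0.64) at days 4, 8 and 12. Its calls were lost without SCR array 3 (-0.59) or KD-labelled array 3 (-0.53) at day 4, SCR array 3 (-0.46) at day 8 and SCR array 1 (-0.53) at day 12, and its day 12 difference from WT was not called (-0.23, adjusted p = 0.4).

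**Figure D4:**
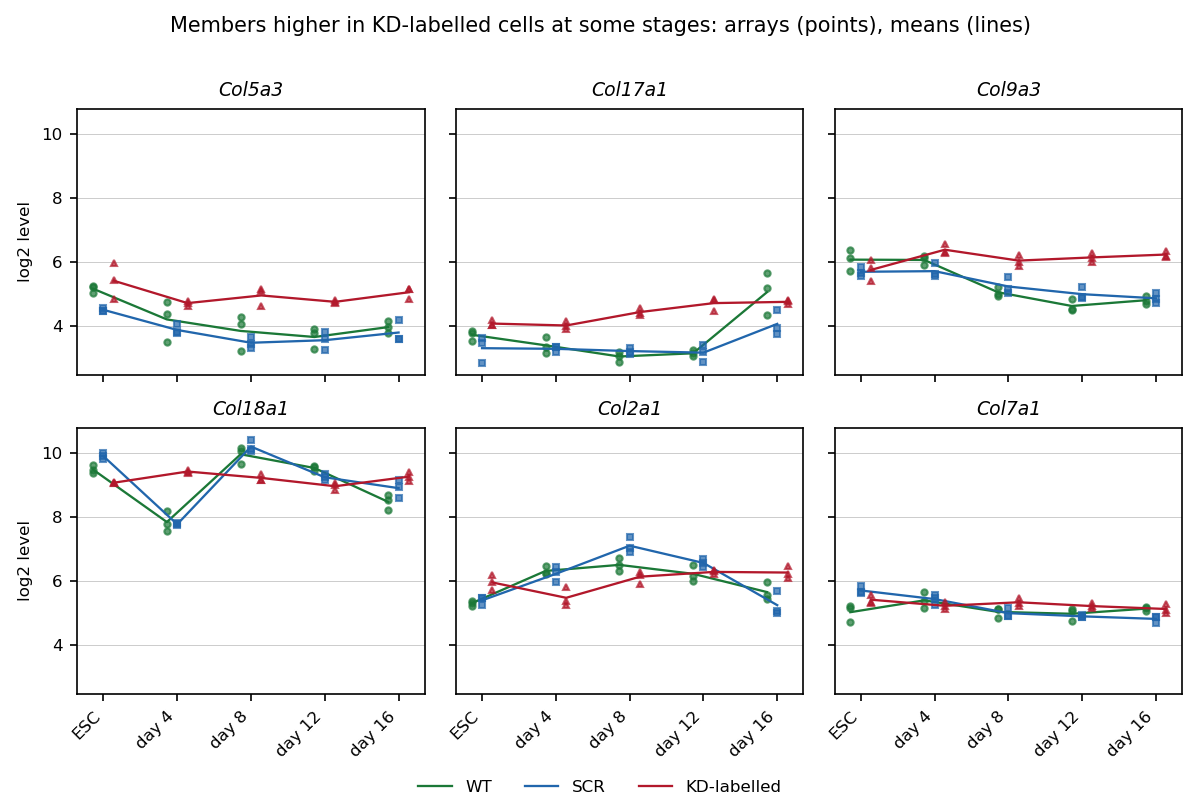
Log2 level of Col5a3, Col17a1, Col9a3, Col18a1, Col2a1 and Col7a1 over the 5 stages, arrays as points (circles WT, squares SCR, triangles KD-labelled) and means as lines. Col5a3 and Col9a3 lie higher on the KD-labelled arrays than on SCR and WT at days 8 and 12, and the control dip of Col18a1 at day 4, to 7.56 to 8.2, is missing from the KD-labelled arrays at 9.38 to 9.47.

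The control lines also differed from each other, though less. SCR minus WT gave 1 lower and 6 higher in ESCs (5.72% and 4.43% of all genes), 0 and 0 at day 4 by limma (1.32% and 0.61%, with 5 members at an unadjusted p under 0.05), 2 and 2 at day 8 (4.16% and 2.83%), 11 and 3 at day 12 (7.67% and 7.05%), and 5 and 1 at day 16 (4.25% and 3.86%). At day 12 SCR read lower than WT for 11 members, among them Col1a1 (-0.98), Col1a2 (-1), Col4a6 (-1.17) and Col8a2 (-1.06), while Col9a1 (1.96), Col23a1 (1.54) and Col27a1 (0.7) read higher. At day 16 Col1a2 (-1.38) and Col4a6 (-1.26) were still lower. Differences of at least 2-fold numbered 1 lower and 0 higher in ESCs (0.929% and 0.879%), 0 and 1 at day 8 (0.967% and 0.907%), 3 and 2 at day 12 (1.39% and 1.86%) and 2 and 1 at day 16 (1.34% and 1.51%). The ESC count fell from 7 to 4 without WT array 3 or SCR array 1, and that at day 8 ranged from 1 to 8 when 1 array was left out (1 without SCR array 3, 2 without WT array 2 or SCR array 2, 8 without SCR array 1). Several differences between the control lines thus reached 2-fold, the size of the smaller differences of the KD-labelled line.

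There were 27 members with more than 1 probe set, and 82 sets over all 42. In a fit over all probe sets, with 135 pairs of a member and a stage, the set used and another were called in opposite directions in 1 pair for KD-labelled minus SCR (Col6a4) and 1 for KD-labelled minus WT (Col25a1). Col25a1 at day 16, called higher than SCR in the fit over genes, had an adjusted p of 0.052 in this fit, beside its other set at -3.38. Sets differed more often in size. Col14a1 gave -1.07 and -2.28 at days 8 and 16 with the set used and -4.08 and -5.94 with another. Col9a1 gave -6.4 and -4.27 against -1.45 and -1.05, and Col5a1 gave -4.33 and -4.19 against -1.29 and -0.47 for its dimmest set. For Col4a1 the other set gave 0.7 at day 8 (adjusted p = 0.0031) and 0.15 at day 16, so on neither set was it lower than SCR at these days. Col17a1, Col7a1, Col6a1 and Col15a1 had 1 set only.

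**Figure D5:**
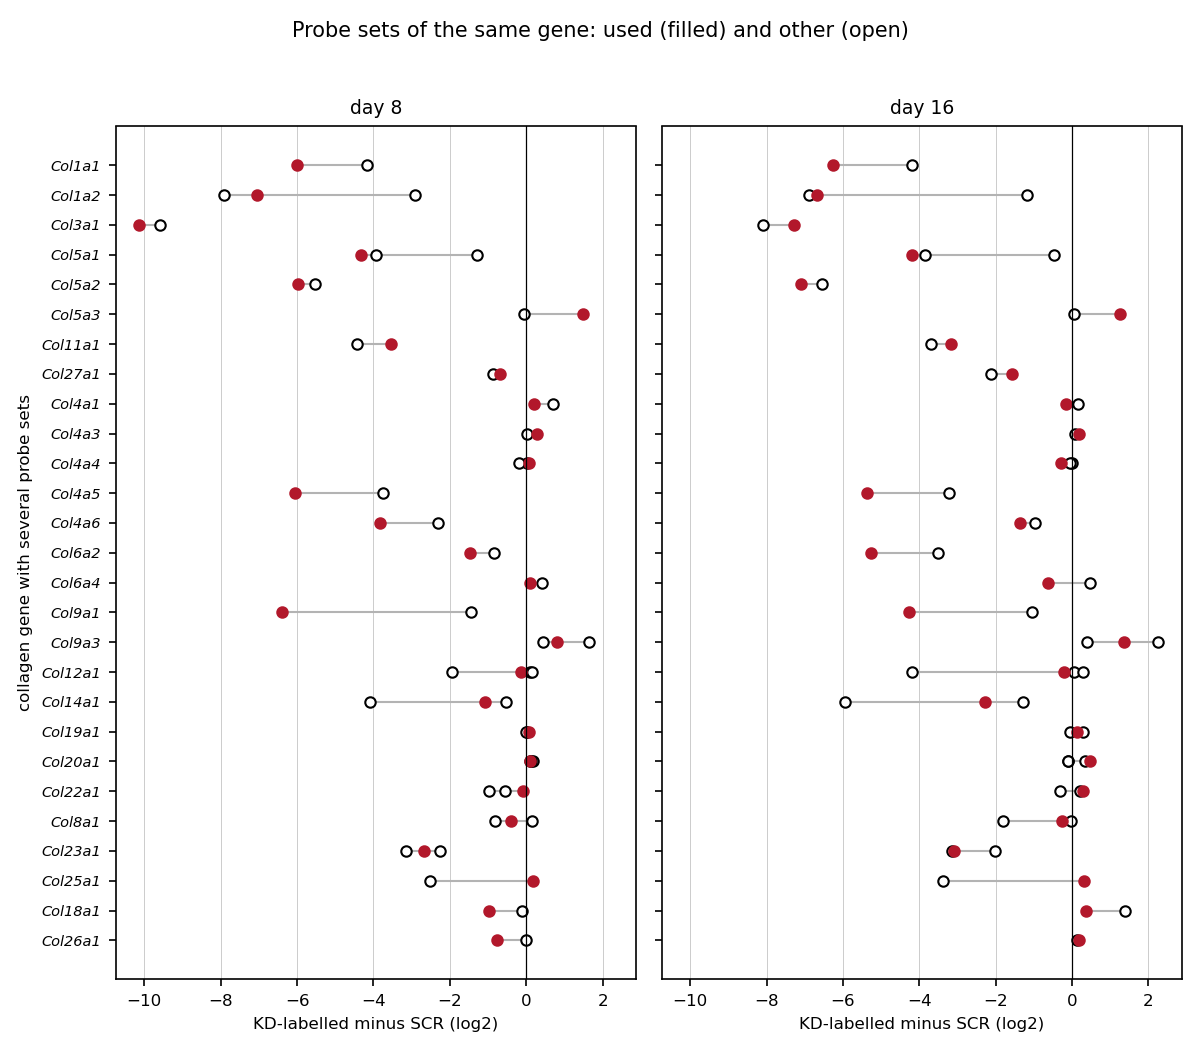
KD-labelled minus SCR log2 difference at days 8 and 16 for each probe set of the 27 members with several; filled points are the sets used and open points the others. For Col12a1 and Col25a1 the set used lies near 0 at day 16 and another at -4.2 and -3.38.

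Genes that build, trim, bind and degrade collagen were read from lists of known function. Of 22 measured genes for chain modification, folding and secretion, 9 were lower and 2 higher than SCR at day 4, 17 and 1 at day 8, 13 and 3 at day 12 and 14 and 0 at day 16, with medians of -0.08, -0.73, -0.47 and -0.6. The shares of all genes on these days were 19.9%, 24.7%, 24.6% and 26.8% lower and 22.6%, 28%, 31% and 39.8% higher. Serpinh1, the chaperone of procollagen, differed by -2.08 at day 8 and -1.51 at day 16. The prolyl 3-hydroxylase family genes P3h3 and P3h4 differed by -1.77 and -2.2 at day 8 and by -2.92 and -1.62 at day 16. Fkbp14, a folding enzyme of the endoplasmic reticulum, differed by -2.26 and -2.45. Creb3l1, a transcription factor of secretory cells, differed by -2.24 at day 8 but -0.32 at day 16 (adjusted p = 0.21).

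Of 10 genes for propeptide removal and cross-linking, 7 were lower at each of days 8, 12 and 16 and 1 to 2 higher. Lox, which cross-links fibrils, was lower (log2 difference -1.23) at day 8 and -5.47 at day 16 (SE 0.24, adjusted p = 9.9e-21), and its relative Loxl1 (-3.76 and -3.6). Pcolce, the enhancer of procollagen C-proteinase, was lower (log2 difference -3.25 and -2.81), whereas its relative Pcolce2 was higher by 3.71 and 3.01 (SE 0.2). Adamts3, a procollagen N-proteinase, was lower (log2 difference -1.75 and -1.99).

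Of 9 receptors, 4, 6 and 7 were lower and 0, 0 and 1 higher at days 8, 12 and 16. Mrc2, the endocytic collagen receptor, was lower (log2 difference -3.83 and -2.97) at days 8 and 16, and Itga1, an integrin subunit that binds collagen (-1.86 and -3.47). Of 10 degradation genes, 5, 5 and 8 were lower and 1, 0 and 0 higher. Mmp2 (-3.05 and -3.12), Mmp14 (-2.51 and -3.05) and Timp2 (-1.51 and -2.11) were among the lower. Of 12 regulators, 9, 9 and 8 were lower and 0, 1 and 0 higher. Among the lower were Tgfb2 (-4.7 and -2.69), Tgfb3 (-3.2 and -4.15), Twist1 (-3.08 and -1.75) and Prrx1 (-2.52 and -3.42). All these lists were chosen with earlier results of these data known. Their counts are set beside 24.7%, 24.6% and 26.8% of all genes lower on those days and 28%, 31% and 39.8% higher. Against WT the counts lower at day 8 were 17 of 22, 7 of 10, 4 of 9, 5 of 10 and 9 of 12, in the same order, beside 23.9%.

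Lists of cell type markers were read beside these results and differed in direction. The mean of 11 mesenchyme and fibroblast markers at day 8 was 9.72 in SCR and 5.36 in KD-labelled EBs. Ranges over arrays were 9.59 to 9.91 and 5.33 to 5.38. Of the 11, 9 were lower and 1 higher, beside 24.7% and 28% of all genes. At day 16 the means were 10.46 and 5.54, with 10 lower and 0 higher, beside 26.8% and 39.8%. In the KD-labelled line Lum was the lowest on these days, at 2.78 and 3.24, and Pdgfra the highest, at 9.26 and 8.62. Pluripotency markers went the other way, with a mean of 10.94 in KD-labelled EBs at day 8 against 5.16 in SCR and 5.28 in WT. At days 8, 12 and 16, 8 of 8 were higher, beside 28%, 31% and 39.8% of all genes against SCR. Endothelial markers averaged 4.88 in KD-labelled EBs, 7.18 in SCR and 7.37 in WT at day 8. Of these 7, 6 were lower than SCR and 1 higher. The 6 heart muscle markers averaged 4.7, 10.58 and 6.91 in the same order, with 5 lower than SCR and 0 higher. Of 6 visceral endoderm and liver markers, 3 were lower and 2 higher at day 8. Of all genes 24.7% were lower and 28% higher on that day. The part of these markers in the collagen results was not tested.

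Beside Col4a1 and Col4a2, 10 parietal endoderm markers averaged 8.28, 8.97 and 8.51 in KD-labelled EBs at days 8, 12 and 16, 7.88, 7.9 and 7.9 in SCR and 8.42, 8.11 and 8.16 in WT. Of the 10, 6, 7 and 6 were higher than SCR and 4, 2 and 3 lower, beside 28%, 31% and 39.8% of all genes higher and 24.7%, 24.6% and 26.8% lower. Against WT 4, 5 and 6 were higher and 5, 3 and 3 lower. Of all genes 26%, 27.1% and 34.6% were higher than WT and 23.9%, 23.6% and 26.1% lower. Among those higher than SCR, Lama1, a laminin chain of early basement membranes, was higher by 1.91, 3.6 and 3.48. The list did not move as 1: its median difference from SCR was 0.34, 0.57 and 0.5. At least 2-fold higher were 3, 4 and 3 of the 10, and 2, 2 and 2 were at least 2-fold lower. Of all genes 9.54%, 10.2% and 10.4% were higher by that size and 10.6%, 11.3% and 13% lower. Beside the cartilage-associated Col2a1, Col9a1 and Col11a1, 8 cartilage markers averaged 3.88 to 4.57 over all groups, and Cnmd was the lowest in most, at 2.85 to 3.41. Hapln1 was the highest in controls at day 8, at 6.79 in WT and 7.2 in SCR. Called at any size at days 8, 12 and 16, 4, 4 and 5 of the 8 were higher than SCR and 1, 1 and 0 lower. Of all genes 28%, 31% and 39.8% were called higher at any size and 24.7%, 24.6% and 26.8% lower. By at least 2-fold, 1, 1 and 2 of the 8 were higher and 1, 0 and 0 lower. The part of these cells in the results was not tested.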

How the data were processed

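Total RNA of 45 samples (Trizol and RNeasy, per the labels' protocols) was read on 3' arrays. The authors deposited log2 values, and the submitters' processing notes name Affymetrix Expression Console, Partek 6.6 and RMA without tying any to a step. They were used unchanged. Of 45037 probe sets, 34945 had 1 gene symbol, 932 several and 9160 none; those with 1 gave 18193 genes, each read by its set of highest mean. A model with 15 group means was fitted to all 45 arrays with limma 3.58.1 (R 4.3.3), and p-values were adjusted by Benjamini-Hochberg over 18193 genes per comparison, with calls at 0.05. The number of arrays limits the precision. The collagens and all gene lists were chosen with earlier results of these data known. All members could be named. Array values were planned for a fixed list of 17 and for those higher in the KD-labelled line. They were not given for Col6a5 and Col7a1. They were also given for Col4a6, Col8a2, Col16a1, Col23a1 and, in control ESCs, Col13a1. List genes were the up to 4 called with the largest difference at day 8 or 16. In simulated data for KD minus SCR at day 8, run on 18193 genes, 50 were changed at each size and 17993 were unchanged. Of those changed, 54% were recovered at 1.5-fold and 96% at 2-fold. In the measured comparison 24.7% of all genes were called lower and 28% higher. Recovery with so large a share of genes changed was not tested. Same-numbered arrays correlated above 0.1 in every pair in 2 of 27 comparisons, so numbers were not taken to pair samples. Alternatives covered scaling, dim genes, probe set choice, a replicate block and leaving out each array.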

Additional observations from a re-analysis of the deposited data

Results flagged for a closer look

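The gap between the KD-labelled line and a control was compared between days 8 and 16 by a tested contrast of the differences. It changed (limma, adjusted p under 0.05) for 15 of 42 collagens against SCR, 8 lower and 7 higher, beside 10.2% and 10.3% of all genes. Against WT it changed for 10, 5 lower and 5 higher, beside 9.47% and 9%. Each value is the day 16 difference minus the day 8 difference. Against SCR it was above 0 for Col3a1 (2.85), Col4a6 (2.48), Col9a1 (2.13), Col2a1 (1.98), Col18a1 (1.34), Col26a1 (0.95) and Col9a2 (0.61). It was below 0 for Col6a2 (-3.79), Col6a1 (-2.43), Col6a3 (-1.64), Col16a1 (-1.43), Col14a1 (-1.21), Col5a2 (-1.14), Col27a1 (-0.87) and Col6a4 (-0.71). The Col26a1 call was lost without day 8 SCR array 3 (0.64), day 16 SCR array 1 (0.85) or day 16 KD-labelled array 3 (0.81). The Col9a2 call was lost without any of 4 arrays, ranging from 0.46 to 0.74, and the Col6a4 call without any of 7, ranging from -0.9 to -0.47.

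Against WT the change was above 0 for Col3a1 (2.89), Col9a1 (2.24), Col18a1 (1.52), Col4a6 (1.23) and Col2a1 (0.98), and below 0 for Col6a2 (-3.64), Col6a1 (-2.51), Col17a1 (-1.69), Col16a1 (-1.24) and Col27a1 (-1.11). Groups of 3 arrays are too small for a test of single outlying arrays.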

How the results depend on the processing

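Leaving out dim genes kept 15 of the 42 collagens, so counts of called members fell by construction. KD minus SCR went from 8 to 5 in ESCs and then from 20 to 10, 26 to 12, 28 to 14 and 32 to 13 at days 4 to 16; KD minus WT went from 7 to 4, 21 to 10, 25 to 12, 28 to 15 and 27 to 13. SCR minus WT went from 14 to 9 at day 12 and 6 to 2 at day 16. Counts against ESCs went from 21 to 10, 30 to 15, 29 to 14 and 31 to 15 in WT, from 19 to 10, 26 to 14, 29 to 15 and 33 to 15 in SCR, and from 7 to 4 at day 4 and 13 to 8 at day 12 in the KD-labelled line. The changes of the gap went from 15 to 8 against SCR and 10 to 6 against WT. Fitting only the groups compared moved SCR minus WT from 7 to 0 in ESCs, 4 to 1 at day 8 and 6 to 3 at day 16. Centring arrays moved the KD-labelled counts against ESCs from 9 to 17 at day 8 and 13 to 28 at day 12; the cause was not tested. With 1 array left out, counts ranged from 5 to 9 for KD minus SCR and 4 to 7 for KD minus WT in ESCs (lowest without KD-labelled ESC array 3), 4 to 7 for SCR minus WT in ESCs, 1 to 8 at day 8, and 3 to 6 for KD-labelled day 4 against ESCs. With the replicate block, KD minus SCR gave 8, 20, 26, 28 and 32 and KD minus WT 7, 21, 24, 29 and 27, and no count moved by over 1.5 times. Col4a1 at day 16 turned from -0.15 to 0.04 against SCR under centring, called in neither. Col12a1 at day 8 was -0.46 as the mean of its probe sets and -1.95 with its most variable set, against -0.14.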
